A study of Homo sapiens with 8 samples.

Results

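The comparison was I-CBP112 alone against DMSO in LNCaP-FGC cells, a subline of an androgen-dependent human prostate carcinoma line. It used 4 of the 8 RNA-seq libraries of the series, 2 treated with I-CBP112 for 24 h and 2 treated with the solvent DMSO for 24 h, chosen by their treatment labels. The other 4 libraries came from cells given A-485, or I-CBP112 and A-485 together, for 24 h, and served for the estimate of the spread and for the comparison with A-485. All groups shared the cell line and the duration. For the doses, the sources used here give no value. Within each group the libraries were numbered 1 and 2. In the labels, all libraries numbered 1 share a prefix and all those numbered 2 another, whose meaning is not stated. The labels do not say whether the libraries came from separate cultures. The p-values thus take their error from the spread of these libraries, which may be technical. With 2 libraries a group, means are over n = 2.

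I-CBP112 binds the bromodomain of p300 and CBP, the pocket with which these transcriptional coactivators recognise acetylated lysines on chromatin. A-485 inhibits their acetyltransferase site instead. p300 and CBP acetylate histones at enhancers and promoters and act as coactivators of many transcription factors. In luminal prostate cells androgen drives secretory genes such as the kallikreins.

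The deposited values were FPKM per transcript (fragments per kilobase of transcript, relative to the fragments of the library), summed here per gene and rescaled so that libraries could be compared. These are called scaled FPKM below. The luminal identity of the cells was seen in all 4 libraries. All 10 luminal markers, among them KRT8, KRT18 and KLK3, reached a scaled FPKM of 1 in every library. Their summed level was 4401 to 5339 with DMSO and 3181 to 3347 with I-CBP112. Of 10 blood markers, 9 lay below 1 in all 4 libraries, as did 7 of the 11 stromal and endothelial markers found and 10 of the 13 neuroendocrine markers. Of the 9 basal markers, 4 lay below 1 throughout. KRT5 was at 0.233 and 6.69 with DMSO and at 0.598 and 14.1 with I-CBP112 (libraries 1 and 2), so that its difference followed the library number rather than the treatment. CD44, another basal marker, was at 0.20 and 3.68 with DMSO and 0.199 and 6.58 with I-CBP112, the same order. The deposited FPKM summed to 808443 and 728120 in the libraries numbered 1 and to 187776 and 181486 in those numbered 2. One fragment on a transcript of 2000 bases was worth 0.0393 (DMSO) and 0.0418 (I-CBP112) scaled FPKM in the libraries numbered 1, and 0.153 and 0.164 in those numbered 2. Low values of the second pair therefore rest on few fragments.

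No gene passed the test of I-CBP112 against DMSO. Of 11876 genes tested by limma on log2(scaled FPKM + 1), 0 (0%) had an adjusted p under 0.05, and the lowest adjusted p was 0.0609. The pseudocount of 1 understates changes of low genes. At an unadjusted p under 0.05 there were 1321 genes (11.1%), of which 543 (4.57%) were higher with I-CBP112 and 778 (6.55%) lower. With the library number as a block this count was 2093 and the adjusted count stayed at 0. Voom on approximate fragment numbers called 2 genes, HMOX1 and MOCOS, and 334 with the block, 87 (0.733%) higher and 247 (2.08%) lower. The directions below are therefore described by the values in each library. Both I-CBP112 libraries lay above both DMSO libraries for 2073 genes (17.5%) and below both for 2349 (19.8%). Within both pairs of same-numbered libraries the log2 difference reached at least 1 upward for 23 genes (0.194%) and downward for 44 (0.37%).

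HMOX1 and MOCOS were the lower genes with the lowest adjusted p. HMOX1 encodes heme oxygenase 1, which degrades heme and is induced by oxidative stress. It was at 30.9 and 26.5 scaled FPKM with DMSO and at 8.65 and 8.60 with I-CBP112, a log2 difference of -1.62 ± 0.19 (standard error; limma, adjusted p = 0.0745). Absence of overlap was a condition of a rule that named HMOX1 and MOCOS. Both DMSO values of HMOX1 were over 3 times its I-CBP112 values. MOCOS, the molybdenum cofactor sulfurase, was at 22.5 and 20.7 against 7.77 and 7.497 (-1.39 ± 0.17; limma, adjusted p = 0.0745). SLC22A3, a transporter of organic cations, was at 65.2 and 58.6 against 28.1 and 23.2 (-1.25 ± 0.17; limma, adjusted p = 0.135). In both genes the 2 libraries of a group lay close together and apart from the other group. In a culture, fewer cells that express a gene and less RNA per cell cannot be told apart in such values.

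PLA2G2A, a secreted phospholipase, was at 25.2 and 22.2 with DMSO and 5.71 and 8.68 with I-CBP112 (-1.61 ± 0.22; limma, adjusted p = 0.135). S100P, a calcium-binding protein, was at 38.4 and 39.2 against 14.3 and 15.7 (-1.32 ± 0.21; limma, adjusted p = 0.165). For both genes the I-CBP112 libraries were the low ones without overlap, which was a condition for naming them. CLEC7A, the beta-glucan receptor dectin-1, was at 9.75 and 7.39 against 1.27 and 1.96. ARHGDIG, an inhibitor of small GTPase cycling, was at 31.9 and 22.8 against 10.3 and 8.85. SMAGP, a small membrane glycoprotein, was at 20.03 and 8.70 against 5.76 and 2.77. The last 3 genes were named under the same condition, and the DMSO libraries of SMAGP differed from each other by more than 2-fold. MT1F, a metallothionein, was at 13.8 and 19.1 against 4.62 and 2.43, and rested on about 16 and 4 fragments in the libraries numbered 2. The unnamed loci AC068020.1 and AC110275.1 belonged to the same set. AC068020.1 was listed at 0 in both I-CBP112 libraries, and at 4.72 and 18.4 with DMSO.

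DPP3, the dipeptidyl peptidase 3, was higher with I-CBP112 and had the lowest adjusted p of all genes tested. It was at 5.58 and 8.66 scaled FPKM with DMSO and at 41.9 and 49.3 with I-CBP112, a log2 difference of 2.54 ± 0.25 (limma, adjusted p = 0.0609). This rested on about 75 and 57 fragments with DMSO against 1209 and 412 with I-CBP112. The gap came from transcript DPP3-215 of 2676 bases, which was at 0.581 and 0.105 with DMSO and at 33.3 and 49.3 with I-CBP112. Of the 50-base windows of DPP3-215, 1.22% were in no other DPP3 transcript. DPP3 was at 24.9 and 33.4 with A-485 alone, also above DMSO.

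Several other genes stood higher without overlap between the groups, which was a condition for naming those given here except CBLN2. CBLN2, a secreted synapse organiser of the cerebellin family, was at 5.14 and 4.37 with DMSO and 13.4 and 13.0 with I-CBP112 (1.31 ± 0.20; limma, adjusted p = 0.160). RLN2, the hormone relaxin, was at 5.42 and 7.51 against 19.4 and 19.8 (1.48 ± 0.26; limma, adjusted p = 0.183). KIDINS220, a scaffold of neurotrophin receptors, was at 2.78 and 3.84 against 8.87 and 10.9. In these genes the I-CBP112 libraries lay closer to each other than to either DMSO library. C8orf59 was at 61.8 and 104 against 207 and 264, and IFI27L2, an interferon-inducible gene, at 2.32 and 2.71 against 7.41 and 13.6. CFAP70, a ciliary protein, was at 0.741 and 0.855 against 4.36 and 7.18. RBM14-RBM4 was at 6.92 and 0.501 against 19.2 and 9.59, but it is a readthrough of neighbouring genes whose reads cannot be told from theirs. The unnamed loci AL121845.2 and AC006486.1 were close to 0 in at least 1 DMSO library. AL121845.2 rested on about 0 and 0 fragments with DMSO and only 1 and 3 with I-CBP112. AC006486.1 rested on about 0 and 4 against 49 and 11.

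Part of the higher set depended on very short transcripts, to which FPKM assigns large values for few fragments. PTPN12, a tyrosine phosphatase, was at 8.37 and 11.6 with DMSO and 52.4 and 38.4 with I-CBP112 (2.08 ± 0.26; limma, adjusted p = 0.0769). Its transcript PTPN12-207 of 159 bases was at 38.9 and 25.97 with I-CBP112 and at or near 0 with DMSO. With transcripts under 300 bases left out, a choice made after seeing the data, the log2 difference of PTPN12 was 0.36, and that of ZMYND8, a bromodomain protein, went from 1.60 to 0.32. The same step moved MARS, a methionyl-tRNA synthetase, from -0.74 to -0.09. PCNX4, at 5.31 and 6.84 against 23.8 and 18.9, kept its log2 difference of 1.66 under this step. It rested on about 320 and 265 fragments with DMSO and 1500 and 367 with I-CBP112. In the pair numbered 2 the fragment number of PCNX4 thus rose less than its scaled FPKM. VPS13A, a lipid transfer protein at 3.08 and 9.61 against 18.6 and 24.4, kept its difference of 1.76. VPS13A rested on about 242 and 201 fragments with DMSO and 846 and 177 with I-CBP112. In the pair numbered 2 its fragment number was thus not higher with I-CBP112.

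**Figure D1:**
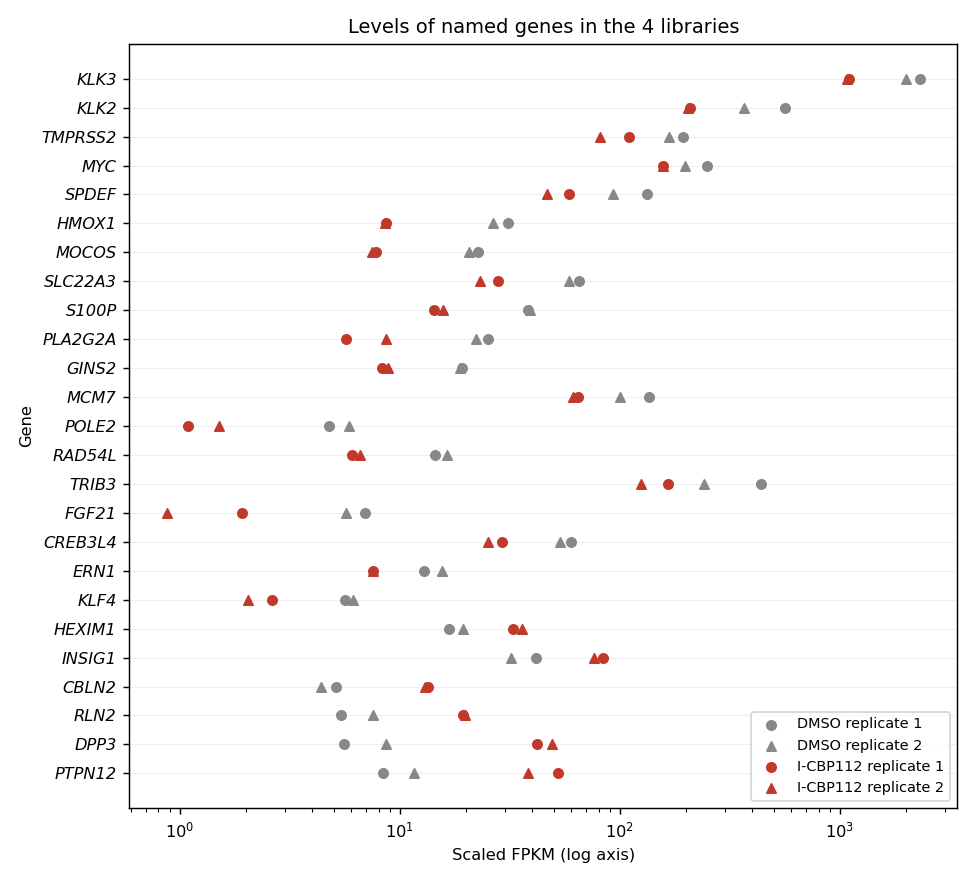
Scaled FPKM (log axis) of 25 named genes in the 4 libraries, with DMSO in grey, I-CBP112 in red, circles for libraries numbered 1 and triangles for those numbered 2. In each gene shown the red symbols lie on 1 side of the grey ones, from KLK3 (1071 to 2305) down to FGF21 (0.875 to 6.98). The genes were picked from those named, so this separation is not a result. Panel genes whose groups overlap (CDKN1A, EP300 and CREBBP) are not shown.

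Androgen-induced genes were lower in part. KLK3, which encodes prostate-specific antigen, was at 2305 and 1996 with DMSO and 1099.5 and 1071 with I-CBP112 (-0.98 ± 0.19; limma, adjusted p = 0.242, and 0.0283 by voom with the block). Voom with the block called the most genes of all processing choices run, 334. KLK2, the related kallikrein, was at 563 and 366 against 207 and 203. TMPRSS2, a membrane protease of the prostate, was at 194 and 166 against 111 and 81.6. All 3 had both I-CBP112 libraries below both DMSO libraries. ACPP, the prostatic acid phosphatase, lay at -1.28 ± 0.24 and TSC22D3, a leucine zipper protein induced by steroid hormones, at -1.13 ± 0.22 (limma, adjusted p = 0.218 and 0.238). Of 41 tested members of the androgen-induced list, 32 lay below 0 (51.5% of all genes did) and 20 were lower without overlap (19.8% of all genes), with a median log2 difference of -0.24 beside -0.01 over all genes tested. Without DMSO library 2 the median was -0.43. An unadjusted p under 0.05 on the lower side was found for 12 members (6.55% of all genes) and on the higher side for 0 (4.57% of all genes). SLC45A3, the transporter prostein, was at 186 and 127 against 171 and 134, a log2 difference of -0.02, so that members of the list behaved differently. ELL2, an elongation factor, was on the other side at 0.64, but between 0.0067 and 0.72 under other processing choices. It rested on about 378 and 104 fragments with DMSO and 352 and 108 with I-CBP112.

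The promoter of KLK3 is printed because this gene is the best known readout of androgen in prostate cells. In the RefSeq promoter table (GRCh38.p14, 250 bases before to 50 after the gene start), the element AGAACA, one side of an androgen response element, searched on both strands, began 170 bases before the start. The window is chr19:50854685-50854814 on the plus strand, with AGAACA in capitals.
KLK3: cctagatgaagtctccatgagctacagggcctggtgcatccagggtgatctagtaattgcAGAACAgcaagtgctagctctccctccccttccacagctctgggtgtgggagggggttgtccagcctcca
AGAACA was in 4 of 29 androgen-induced promoters (13.8%), in 8.41% of the promoters of all genes tested and in 14.9% of the 27305 promoters in the table. A match of letters is a description and not a binding site.

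Genes repressed by androgen lay on the other side. Of 11 tested members 10 were above 0, 9 were higher in both pairs (25.9% of all genes were) and 6 were higher without overlap (17.5% of all genes; median 0.24, and 0.37 without DMSO library 1). BCHE, butyrylcholinesterase, was at 10.9 and 12.8 with DMSO and 16.6 and 18.0 with I-CBP112 (0.51 ± 0.17; limma, adjusted p = 0.355). IGFBP3, a binding protein of insulin-like growth factors, was at 4.75 and 4.33 against 6.76 and 7.06. DDC, aromatic L-amino acid decarboxylase, was at 98.1 and 113 against 134 and 170. These 3 genes showed small differences without overlap, and none passed the test.

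Lineage transcription factors were lower in SPDEF, ELF3 and GATA2 and close to DMSO in FOXA1. SPDEF, an ETS factor of secretory epithelium, was at 133 and 93.2 with DMSO and 58.8 and 46.6 with I-CBP112 (-1.08 ± 0.25; limma, adjusted p = 0.270). GATA2, a zinc finger factor active at prostate enhancers, was at 97.2 and 81.3 against 63.4 and 49.0. ELF3, another epithelial ETS factor, was at 31.3 and 22.1 against 16.4 and 14.7. The 3 genes shared the absence of overlap. FOXA1, a pioneer factor, was at 208 and 168 against 199 and 194, so the groups overlapped. Of 12 tested factors, 11 lay below 0 (51.5% of all genes did) and 7 were lower without overlap (19.8% of all genes; median -0.32).

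The glucocorticoid-type hormone response list had a median of -0.40 over 18 members, with 13 below 0 (51.5% of all genes) and 8 at an unadjusted p under 0.05, all lower (6.55% of all genes). With transcripts under 300 bases left out the median was -0.26. LCN2, the iron-scavenging lipocalin 2, was at 8.73 and 7.39 with DMSO and 3.10 and 2.70 with I-CBP112 (-1.22 ± 0.20; limma, adjusted p = 0.176). CEBPD, a transcription factor of the acute response, was at 14.8 and 16.4 against 8.38 and 8.85. Both genes separated the groups. S100P, TSC22D3 and the co-chaperone FKBP5 belonged to this list too, and FKBP5 was at 24.4 and 19.5 against 14.8 and 16.7.

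Genes of the G1/S transition and DNA replication formed the list with the lowest median. These genes load and fire replication origins, make nucleotides and copy DNA, and E2F factors control many of them. Of 47 tested members 45 lay below 0, 40 were lower in both pairs, where 28.9% of all genes were, and 36 were lower without overlap, where 19.8% of all genes were. The median was -0.51, and -0.63 and -0.36 within the pairs numbered 1 and 2. An unadjusted p under 0.05 on the lower side was found for 24 of the 47, beside 6.55% of all genes, and 14 were lower by voom with the block, beside 2.08%. Only POLD1, a catalytic DNA polymerase subunit, and SLBP, which binds histone mRNA, lay above 0 (0.36 and 0.15). With the block and a correction for GC content and length, the median was -0.51.

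Individual members showed the same order of libraries. POLE2, a subunit of DNA polymerase epsilon, was at 4.78 and 5.87 with DMSO and 1.09 and 1.51 with I-CBP112 (-1.46 ± 0.22; limma, adjusted p = 0.160), on about 48, 16, 20 and 8 fragments. In both pairs its fragment number fell by a smaller factor than its scaled FPKM. GINS2, part of the replicative helicase, was at 19.1 and 18.8 against 8.26 and 8.81 (-1.07 ± 0.21; limma, adjusted p = 0.242). MCM7, another helicase subunit, was at 136 and 99.8 against 64.3 and 61.1 (-0.88 ± 0.20; limma, adjusted p = 0.263). In all 3 the I-CBP112 libraries were the lower ones and lay within 1.5 times of each other. E2F2, an activating E2F factor, was at 2.14 and 1.87 against 0.678 and 0.534. RRM2, the small subunit of ribonucleotide reductase, was at 44.4 and 35.1 against 19.0 and 23.1. PCNA, the sliding clamp of the polymerases, lay closer to 0 (-0.16), as did the helicase subunit MCM6 (-0.08).

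Promoters of 4 lower members show where E2F letters stand. The elements TTTGGCGC and TTTCGCGC were searched on both strands, and matches are in capitals. The windows are chr14:49688212-49688294 on the minus strand, chr1:23531234-23531335 on the minus strand, chr20:25407593-25407685 on the plus strand and chr7:100101398-100101477 on the minus strand (RefSeq, GRCh38.p14), each printed in the direction of its gene.
POLE2: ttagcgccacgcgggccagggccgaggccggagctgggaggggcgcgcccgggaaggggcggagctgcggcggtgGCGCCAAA
E2F2: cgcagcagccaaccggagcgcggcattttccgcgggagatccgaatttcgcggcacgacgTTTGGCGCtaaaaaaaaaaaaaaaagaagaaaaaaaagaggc
GINS1: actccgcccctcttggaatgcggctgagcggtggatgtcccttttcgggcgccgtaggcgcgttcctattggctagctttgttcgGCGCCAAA
MCM7: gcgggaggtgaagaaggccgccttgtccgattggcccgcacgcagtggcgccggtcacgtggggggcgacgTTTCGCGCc
TTTGGCGC was in 9 of 40 G1/S promoters found (22.5%), in 1.10% of the promoters of all genes tested and in 0.659% of all promoters in the table. TTTCGCGC was in 5 of the 40 (12.5%), in 1.01% of tested genes and in 0.546% of all. Members with TTTGGCGC had a median log2 difference of -0.84 and those without it -0.50. For TTTCGCGC the medians lay closer together, at -0.60 with it and -0.51 without. MCM6, at -0.08, held 4 matches of the 2 elements, some of which overlap. The matches describe these promoters and bear on no factor.

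Mitotic genes and genes of recombination repair were lower less evenly. In the G2/M and mitosis list 29 of 34 lay below 0 and 15 were lower without overlap, where 19.8% of all genes were. The median was -0.26, and -0.17 without DMSO library 2. CDC25C, the phosphatase that triggers mitosis, was at 18.8 and 12.4 with DMSO and 6.78 and 6.38 with I-CBP112 (-1.10 ± 0.26; limma, adjusted p = 0.284). BIRC5, the mitotic survival factor survivin, was at 72.7 and 44.6 against 32.9 and 32.5, and AURKB, a mitotic kinase, at 61.8 and 40.8 against 31.5 and 29.6. The 3 genes kept the groups apart. CENPF and HMMR, which are spindle and kinetochore proteins, lay at 0.66 and 0.68, mainly through the pair numbered 1 (1.44 and 1.32, beside -0.12 and 0.04 in the pair numbered 2).

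In the homologous recombination and Fanconi anaemia list 19 of 22 were below 0 (51.5% of all genes were), with a median of -0.29, and -0.15 and -0.49 within the pairs. Without DMSO library 1 the median was -0.55 and without DMSO library 2 -0.13. RAD54L, a motor protein of strand exchange, was at 14.5 and 16.4 against 6.04 and 6.56 (-1.17 ± 0.24; limma, adjusted p = 0.248). FANCD2, which marks DNA crosslinks, was at 13.3 and 11.0 against 7.196 and 5.89. For both genes the groups stood apart in each pair. Both lists had a low median GC content, 43.8% for mitosis and 44.0% for recombination, beside 49.9% over all genes. With the block and a correction for GC content and length the medians were -0.28 and -0.50.

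Targets of ATF4, the factor that raises amino acid synthesis and transport in the integrated stress response, were lower in 29 of 30 members. The median was -0.49, with -0.63 and -0.41 within the pairs, 21 lower without overlap (19.8% of all genes), and 11 at an unadjusted p under 0.05 on the lower side (6.55% of all genes). FGF21, a secreted stress hormone, was at 6.98 and 5.68 with DMSO and 1.92 and 0.875 with I-CBP112 (-1.64 ± 0.25; limma, adjusted p = 0.162), with about 3 fragments in the lowest library. TRIB3, a pseudokinase that feeds back on ATF4, was at 438 and 241 against 166 and 125 (-1.17 ± 0.30; limma, adjusted p = 0.294). CEBPB, a partner of ATF4, was at 167 and 99.0 against 73.6 and 59.3. In TRIB3 and CEBPB the DMSO libraries differed from each other by more than 1.5 times, and yet both stayed above the I-CBP112 libraries. SLC7A5, the leucine transporter, was at 9.72 and 7.10 against 3.91 and 5.17. CHAC1, a glutathione-degrading enzyme, was at 105 and 74.1 against 74.7 and 73.7, so that the second pair did not differ. ATF4 itself was at 1096 and 867 against 679 and 801.

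The letters TGATGCAA, an amino acid response element searched on both strands, were in the promoters of FGF21 and CHAC1. The windows, printed because these are the targets in which the element was found, are chr19:48755410-48755523 on the plus strand and chr15:40953221-40953350 on the plus strand (RefSeq, GRCh38.p14). Capitals mark the match, here on the opposite strand.
FGF21: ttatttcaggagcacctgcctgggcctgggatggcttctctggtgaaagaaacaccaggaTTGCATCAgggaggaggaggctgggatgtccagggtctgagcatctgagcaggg
CHAC1: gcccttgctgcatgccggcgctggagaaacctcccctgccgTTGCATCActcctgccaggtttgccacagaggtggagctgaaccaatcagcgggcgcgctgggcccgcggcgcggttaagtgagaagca
These 2 were among 25 ATF4 target promoters found (8%), beside 0.449% of the promoters of all genes tested and 0.923% of all in the table.

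Of the 20 cytosolic aminoacyl-tRNA synthetases, which charge tRNAs and of which several are ATF4 targets, 14 lay below 0 (51.5% of all genes did) and 11 were lower without overlap (19.8% of all genes). The median was -0.34, and -0.22 without DMSO library 1. WARS, the tryptophan enzyme, was at 364 and 225 with DMSO and 163 and 156 with I-CBP112 (-0.84 ± 0.27; limma, adjusted p = 0.353). IARS, the isoleucine enzyme, was at 171 and 151 against 83.7 and 105. CARS, the cysteine enzyme, was at 59.6 and 52.4 against 39.2 and 31.2. All 3 separated the groups, whereas TARS, DARS and HARS lay above 0 (0.33, 0.33 and 0.20).

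Genes of protein folding and stress in the endoplasmic reticulum were lower in 23 of 26 members, 22 of them in both pairs (28.9% of all genes) and 20 without overlap (19.8% of all genes). The median was -0.37, and -0.53 and -0.22 within the pairs. CREB3L4, a membrane-bound transcription factor abundant in the prostate, was at 59.96 and 53.3 with DMSO and 29.2 and 25.2 with I-CBP112 (-1.03 ± 0.17; limma, adjusted p = 0.176). ERN1, the stress sensor IRE1, was at 12.8 and 15.6 against 7.54 and 7.55 (-0.83 ± 0.18; limma, adjusted p = 0.256). XBP1, whose mRNA ERN1 splices, was at 321 and 220 against 146 and 163. For these 3 genes no I-CBP112 library reached a DMSO library. CRELD2, a secreted folding factor, was at 84.8 and 87.5 against 54.3 and 52.1. HSPA5, the chaperone BiP, differed less, at 249 and 234 against 192 and 199.

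The endoplasmic reticulum stress element, CCAAT and CCACG with a spacer of any letters between them, was searched on both strands, and the windows of 2 members that hold it are printed with the match in capitals. They are chr22:28800570-28800681 on the minus strand and chr22:49918494-49918623 on the plus strand (RefSeq, GRCh38.p14).
XBP1: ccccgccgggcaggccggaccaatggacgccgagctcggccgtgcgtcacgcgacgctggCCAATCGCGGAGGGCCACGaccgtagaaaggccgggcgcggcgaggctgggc
CRELD2: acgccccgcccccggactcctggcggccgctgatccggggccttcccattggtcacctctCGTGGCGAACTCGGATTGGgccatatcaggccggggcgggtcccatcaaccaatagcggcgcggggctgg
It was in 6 of 25 promoters of the list (24%), in 0.139% of the promoters of all genes tested and in 0.0806% of all in the table. The median log2 difference was -0.42 for members with it and -0.37 for those without.

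**Figure D2:**
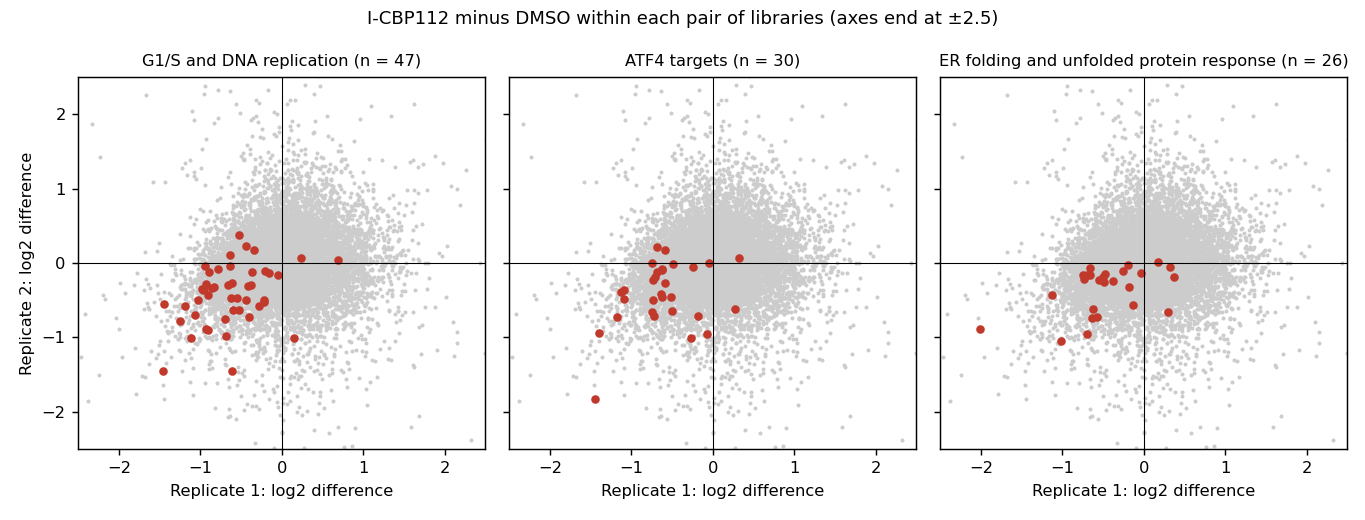
Log2 difference, I-CBP112 minus DMSO, in the pair numbered 1 (horizontal) and the pair numbered 2 (vertical), with all 11876 genes in grey and members of 3 lists in red. Most red points lie in the lower left field, 40 of 47 for G1/S, 25 of 30 for ATF4 targets and 22 of 26 for the endoplasmic reticulum list.

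Lipid synthesis genes were higher in part. In the cholesterol list, 18 of 26 members lay above 0, 13 were higher in both pairs and 10 higher without overlap, where 17.5% of all genes were (median 0.23). INSIG1, which retains the sterol sensor in the endoplasmic reticulum and is itself a target of SREBP factors, was at 41.5 and 32.05 with DMSO and 83.9 and 76.2 with I-CBP112 (1.11 ± 0.20; limma, adjusted p = 0.1999). LSS, lanosterol synthase, was at 26.9 and 27.3 against 46.9 and 38.2. Both were higher without overlap, but FDPS, farnesyl diphosphate synthase, was lower at 195 and 155 against 104 and 127. In the fatty acid list 13 of 18 were above 0 and 10 higher in both pairs (median 0.25). SREBF1, which encodes the lipogenic factor SREBP1, was at 142 and 114 against 184 and 187, and ELOVL6, a fatty acid elongase, at 4.90 and 4.86 against 6.55 and 8.20. Without DMSO library 2 the medians were 0.049 for cholesterol and 0.081 for fatty acids, and without I-CBP112 library 1 that for fatty acids was 0.10.

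HEXIM1 was higher without overlap. It holds the elongation kinase P-TEFb inactive and is a known marker of bromodomain inhibition of BET proteins. HEXIM1 was at 16.7 and 19.4 with DMSO and 32.8 and 35.8 with I-CBP112 (0.89 ± 0.17; limma, adjusted p = 0.228, and 0.0183 by voom with the block), with no overlap. Here too, voom with the block was the processing choice with the most calls. Genes of BET proteins lay nearer to 0, at 0.34 for BRD2 and -0.30 for BRD3. In the same list LARP7, a subunit of the RNP that holds P-TEFb, lay at 0.68 ± 0.42 with overlapping groups. ELL2 lay at 0.64 ± 0.31, and as low as 0.0067 under other processing choices. EP300 was at 7.40 and 10.54 against 8.96 and 11.1 and CREBBP at 6.45 and 12.2 against 9.85 and 10.6, so the groups overlapped for both target genes. Of 28 tested genes of other bromodomain proteins 21 were above 0 and 11 higher without overlap, where 17.5% of all genes were. The median was 0.16, but 0.011 without DMSO library 1, 0.28 without DMSO library 2 and 0.10 without I-CBP112 library 2. The largest differences in this list were those of ZMYND8, given above, and BAZ2B, at 1.16 ± 0.37 (limma, adjusted p = 0.351). BAZ2B rested on about 13 and 29 fragments with DMSO and 76 and 12 with I-CBP112. Its fragment number thus rose in the pair numbered 1 and fell in the pair numbered 2. SMARCA2, an ATPase of SWI/SNF remodelers, was at 24.1 and 25.5 against 33.7 and 35.1, and TRIM33, a chromatin-binding E3 ligase, at 5.89 and 6.33 against 8.92 and 10.04. This list held long transcripts of low GC content (medians 4463 bases and 45.3%), and its median was 0.11 after correction for both with the block.

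MYC and immediate early genes differed within their lists. MYC was at 249 and 197 with DMSO and 157 and 157 with I-CBP112 (-0.49 ± 0.21; limma, adjusted p = 0.444), without overlap, while the MYC network list had 6 of 12 members below 0. KLF4, a zinc finger factor of epithelial differentiation, was at 5.64 and 6.11 against 2.62 and 2.04 (-1.05 ± 0.19; limma, adjusted p = 0.1999). DUSP1, a phosphatase of MAP kinases, was at 23.5 and 17.3 against 11.5 and 13.9 and JUNB, an AP-1 subunit, at 27.2 and 21.7 against 16.1 and 13.8. KLF4, DUSP1 and JUNB kept the groups apart, but the list of CREB targets and immediate early genes was mixed, with 11 of 19 below 0. In the p53 list 18 of 26 were below 0 (median -0.24, and -0.14 without DMSO library 1), with GDF15, a secreted stress cytokine, at 1966 and 1654 against 1064 and 1062. CDKN1A, the cell cycle inhibitor p21, overlapped between groups at 325 and 197 against 214 and 165. CCND1, which encodes cyclin D1, was at 98.9 and 96.7 against 95.3 and 78.3.

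In several lists the pairs gave different medians. The ribosomal protein list, with 44 members, had a median of -0.46 in the pair numbered 1 and -0.01 in the pair numbered 2, and 0 members at an unadjusted p under 0.05. Its transcripts are short, with a median of 643 bases. Hypoxia and glycolysis genes had medians of -0.33 and 0.16, oxidative phosphorylation genes -0.28 and 0.06, and splicing factors 0.26 and -0.04. The same held for CREB targets and immediate early genes (-0.35 and 0.05), NF-kB targets (-0.37 and 0.01), polyamine genes (-0.30 and 0.01), the BCL2 family (-0.27 and -0.03) and the 5 metallothioneins tested (-0.72 and 0.31).

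**Figure D3:**
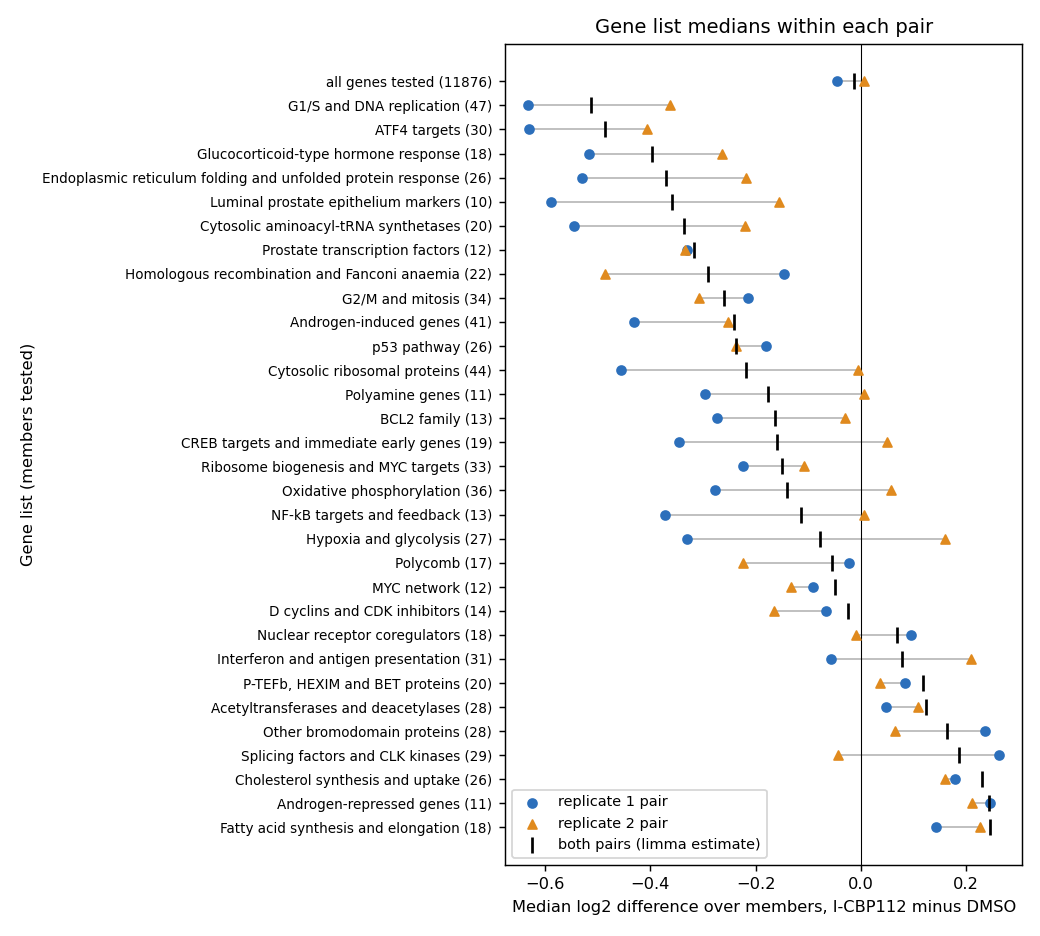
Median log2 difference over the tested members of each list with at least 10 members, within the pair numbered 1 (circle), within the pair numbered 2 (triangle) and as estimated by limma from both (bar). G1/S (-0.63 and -0.36) and ATF4 targets (-0.63 and -0.41) have the lowest limma medians, and several lists, such as ribosomal proteins (-0.46 and -0.01), differ between the pairs.

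Across genes the pairs were weakly related, with a Pearson correlation of their log2 differences of 0.12 over 11876 genes and 0.21 over the 4857 genes with a mean of at least 20 scaled FPKM. Genes are not independent replicates, and no p is given. The pair numbered 1 moved with GC content, with medians of 0.31, -0.01, -0.24 and -0.18 over 4 equal groups of genes from low to high GC content, and with length, from -0.21 in the shortest to 0.11 in the longest of 4 equal groups. In the pair numbered 2 the corresponding medians stayed between -0.02 and 0.05. Genes at 20 or more had a median of -0.24 in the pair numbered 1 and 0.02 in the other. The median level was 101 scaled FPKM for ATF4 targets, 128 for the aminoacyl-tRNA synthetases and 55.8 for the endoplasmic reticulum list. Over all genes tested it was 13.8, so the shares of all genes printed beside these lists are not matched for level. The part of these properties in single genes was not tested.

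**Figure D4:**
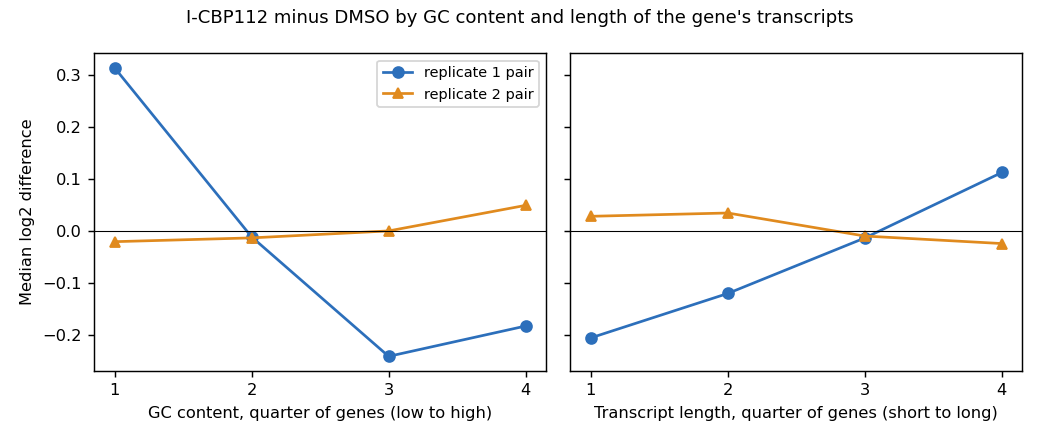
Median log2 difference, I-CBP112 minus DMSO, in 4 equal groups of genes by GC content (left) and by transcript length (right), for the pair numbered 1 (circles) and the pair numbered 2 (triangles). The first pair runs from 0.31 at low GC content to -0.18 at high and from -0.21 for short to 0.11 for long transcripts, while the second lies close to 0.

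Among single isoforms, 7 of 31832 transcripts passed the test, 1 higher (0.00314%) and 6 lower (0.0188%). An unadjusted p under 0.05 was found for 7.17%, and a log2 difference of at least 1 in both pairs for 2.42% upward and 2.71% downward. With the block 2 of the 7 passed, EEF1D-221 and SSBP1-211, and with any 1 library left out 1 to 12 transcripts passed. EEF1D-221, a transcript of 308 bases from the gene of an elongation factor subunit, fell from 317 and 280 scaled FPKM with DMSO to 0.118 and 1.90e-05 with I-CBP112 (limma, adjusted p = 1.78e-04). SSBP1-211, from the gene of the mitochondrial single-stranded DNA-binding protein, fell from 130 and 201 to 0.110 and 0.0469 (limma, adjusted p = 0.0185). With A-485 alone these were at 133 and 133 for EEF1D-221 and at 46.4 and 108 for SSBP1-211. With I-CBP112 and A-485 together they were at 137 and 168 and at 77.6 and 94.9. Each transcript was thus near 0 in both libraries of I-CBP112 alone. The libraries given I-CBP112 with A-485 did not share this loss. Relative to the other transcripts of their genes both passed as well (limma, adjusted p = 0.0287 for each), the 2 calls (0.00712%) among 28099 (6.06% at an unadjusted p under 0.05), and 0 passed with the block.

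For SSBP1 and MPV17 a close relative of the transcript was high where it was near 0. SSBP1-201 was at 31.2 and 0.0139 with DMSO and 99.5 and 136 with I-CBP112, and the sum of SSBP1-201 and SSBP1-211 was 161 and 201 against 99.7 and 136. Of the 50-base windows of SSBP1-211, 87.7% are also in SSBP1-201. MPV17-201, from the gene of a mitochondrial inner membrane protein, fell from 69.7 and 62.3 to 0.0810 and 0.459 (limma, adjusted p = 0.0149, and 0.0578 with the block). With I-CBP112 and A-485 together MPV17-201 was at 34.9 and 50.5. MPV17-203 was at 39.9 and 0.188 with DMSO against 59.1 and 61.5 with I-CBP112 alone. The sum of both transcripts was 110 and 62.5 against 59.2 and 61.9. Of the windows of MPV17-201, 95.7% are in MPV17-203. Summed over all transcripts, SSBP1 differed by -0.25 ± 0.28 and MPV17 by -0.43 ± 0.29 (log2).

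The other transcripts called were EEF1B2-207, ACADVL-205, SHMT2-211 and RNF167-202. EEF1B2-207, of another elongation factor subunit, was near 0 with DMSO and at 63.0 and 86.2 with I-CBP112 (limma, adjusted p = 0.0157), with 0 of its windows outside its relatives. ACADVL-205, of a fatty acid oxidation enzyme, fell from 115.9 and 69.0 to 0.00195 and 0.147 (limma, adjusted p = 0.0334). SHMT2-211, of a mitochondrial serine enzyme, and RNF167-202, of a ubiquitin ligase, fell from 36.4 and 40.6 and from 23.9 and 23.1 to below 0.01. None of these 4 passed with the block (limma, adjusted p from 0.0578 to 0.0758). With I-CBP112 and A-485 together EEF1B2-207 was near 0 and ACADVL-205 at 68.0 and 57.2, both unlike I-CBP112 alone. SHMT2-211 and RNF167-202 stayed near 0 there. Among 23986 transcripts of genes at 5 or more, the share of the gene's value was higher by at least 20 points in both pairs for 194 (0.809%) and lower by as much for 217 (0.905%). Among the largest shifts were DPP3-215, MYADM-204 and PISD-202, the last at 75.6% and 98.2% of its gene with DMSO and 0.0530% and 0.0287% with I-CBP112.

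**Figure D5:**
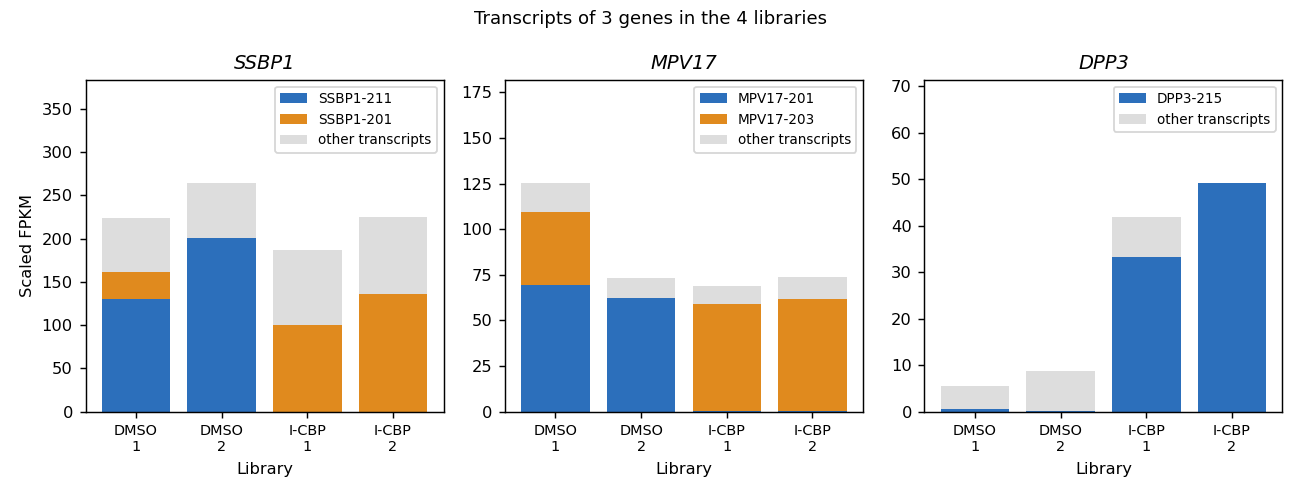
Scaled FPKM of transcripts of SSBP1, MPV17 and DPP3 in the 4 libraries, as stacked bars that start at 0, with the named transcripts in blue and orange and all other transcripts of the gene in grey. SSBP1-211 and MPV17-201 are near 0 with I-CBP112, where SSBP1-201 and MPV17-203 are high, whereas DPP3-215 (0.581 and 0.105 against 33.3 and 49.3) adds to the total.

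A-485 was set beside I-CBP112 because it acts on the same proteins at another site. Both comparisons with DMSO share the DMSO libraries, so their values are given side by side, and the test is of A-485 against I-CBP112 directly. Doses are not known, and the differences hold for the doses used. Of 11876 genes, 10 (0.0842%) were higher and 91 (0.766%) lower with A-485 than with I-CBP112 (limma), and 306 in all with the block. Without DMSO library 1 the total was 119, and without a library of a compound it was between 6 (A-485 library 2) and 48. Against DMSO, A-485 alone gave 552 calls (4.65%), and I-CBP112 added to A-485 gave 96 against A-485 alone (0.808%). INSIG1 was at 83.9 and 76.2 with I-CBP112 and 19.6 and 15.5 with A-485, beside 41.5 and 32.05 with DMSO, so that the compounds lay on opposite sides of the solvent (limma, adjusted p = 0.00527). DDC was at 134 and 170 with I-CBP112 and 27.2 and 35.8 with A-485 (limma, adjusted p = 0.0103). In both genes A-485 gave the lower values in both libraries.

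By list, 7 of 30 ATF4 targets and 9 of 41 androgen-induced genes were lower with A-485 than with I-CBP112, beside 0.766% of all genes. CHAC1 was at 74.7 and 73.7 with I-CBP112 and 10.3 and 7.41 with A-485 (limma, adjusted p = 0.00312), and SLC45A3 at 171 and 134 against 18.7 and 14.4 (limma, adjusted p = 0.00312). MYC was at 157 and 157 against 60.7 and 52.1 (limma, adjusted p = 0.0247). The opposite order held for PLA2G2A, at 5.71 and 8.68 with I-CBP112 and 34.0 and 27.1 with A-485 (limma, adjusted p = 0.0107), and for KLF4, at 2.62 and 2.04 against 6.82 and 6.25 (limma, adjusted p = 0.0351). With A-485 neither gene lay below its DMSO values. The G1/S medians against DMSO were -0.51 with I-CBP112 and -0.49 with A-485, and the median difference between the compounds was 0.04. HEXIM1 was at 32.8 and 35.8 with I-CBP112 and 32.6 and 34.9 with A-485 (difference -0.02 ± 0.17), and HMOX1 at 8.65 and 8.60 against 8.14 and 6.02.

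Whether I-CBP112 acted differently once A-485 was present was tested as an interaction. Limma called 0 of 11876 genes (0%), and 11 with the block, all with a more negative difference when A-485 was present. KLK3 differed by -0.98 with I-CBP112 alone and by -3.54 when I-CBP112 was added to A-485 (interaction -2.56 ± 0.27; limma, adjusted p = 0.0676, and 0.0211 with the block). BCHE differed by 0.51 alone and -1.77 when added, and DDC by 0.51 and -1.66 (limma, adjusted p = 0.0211 with the block for each). Among the others were ACKR3, COLCA1, MAOA, PLK2, TFPI, UGT2B15 and UGT2B17. Of the genes named here, BCHE, DDC and MAOA were higher than DMSO without overlap with I-CBP112 alone, where 17.5% of all genes were. KLK3, COLCA1 and PLK2 were lower without overlap, where 19.8% of all genes were. The differences of MAOA and PLK2 were small, at 0.19 and -0.06.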

How the data were processed

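RNA-seq of LNCaP-FGC cells was analysed from a table of 81591 transcripts in 8 libraries. The authors deposited it as a table of isoform counts, yet 78.3% of the values were fractions. Low values of transcripts of at least 3000 bases lay at multiples of a step set by length. After 200 bases were taken off the length, 70.5% to 76.0% of these low values were whole multiples within 0.02. The deposited values were taken to be FPKM, and the count test planned for raw counts was replaced by the limma test planned for normalized values. According to the submitters' processing notes, the tools were STAR, Cufflinks, DESeq and DESeq2, and the builds GRCh37 and hg19. For versions and roles, the sources used here give nothing.

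By Ensembl identifier in GENCODE release 29, used for names, lengths, GC content and the shared windows of isoforms, 74209 transcripts (91.0%) matched, which gave sums for 19431 genes. Libraries were brought to a total of 1e+06 and rescaled by a trimmed mean of log ratios (30% of ratios and 5% of levels trimmed). This moved the median gene from 0.05 to -0.01 on the log2 scale. The 4 libraries compared held about 18.6, 4.12, 14.2 and 3.91 times 1e+06 fragments on these transcripts (DMSO 1 and 2, I-CBP112 1 and 2). Genes and transcripts at 1 or more in at least 2 libraries entered limma (version 3.58.1, R 4.3.3) as log2(scaled FPKM + 1). All 8 libraries shared the fit, with a mean for each group and 4 residual degrees of freedom, and p-values were adjusted by Benjamini-Hochberg at 0.05. The fit was tested on simulated data in which libraries varied independently of each other. These data lacked the shared deviations of same-numbered libraries and their difference in depth, so the behaviour of the fit under both was not tested. Figures and tables were made with Python 3.11.15.

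Same-numbered libraries deviated together, with correlations of their deviations from the group means from 0.14 to 0.43 over the 6 pairs of groups, and the labels give same-numbered libraries a shared prefix of unstated meaning, so the library number was taken to pair the samples and was used as a block in an alternative. Named were a panel of 10 genes, the 12 genes in each direction with the largest smaller-of-both-pairs difference (at least 1 log2 in both pairs, groups apart, and a mean of 5 in the higher group), the 10 of lowest p, up to 4 per list, the 6 transcripts in each direction with the largest change in share, and genes called where an alternative called 5 or fewer. Other list members were named after their values were seen. The members and gene lists were chosen with earlier results of these data known. The promoter windows were taken from the RefSeq table of GRCh38.p14 by symbol. Some genes that the rule names are not reported here.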

Additional observations from a re-analysis of the deposited data

How the results depend on the processing

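Gene calls stood at 0 and the count at an unadjusted p under 0.05 at 1321. With 4 libraries and the replicate block limma called 30 genes, at a pseudocount of 5 it called 3 (DPP3, HMOX1, MOCOS), at a minimum of 5 it called 5 (these with PTPN12 and PCNX4), and with length and GC correction and the replicate block 22. Voom called 2, and 334 with the replicate block. With 1 library left out 0 to 2 were called (GYG2 and RSRP1 without DMSO library 1). The unadjusted count was 2093 with the replicate block, 819 from the 4 libraries, 8 on the FPKM as deposited, 2345 with length and GC correction and the block, 2817 by voom with the block, and 827 (without I-CBP112 library 2) to 2281 (without DMSO library 2) with 1 library left out. Genes at 1 or more in both pairs numbered 10 higher and 10 lower as deposited, 97 and 96 at a pseudocount of 0.1, 7 and 7 at 5, and 28 lower at a minimum of 5. Without overlap there were 70 higher and 19 lower as deposited. Transcript calls were 2 with the replicate block, 4 at a minimum of 5 and 1 (without DMSO library 2, for example) to 12 (without A-485 library 1) with 1 library left out. Calls of transcript use were 0 with the block, 0 at a pseudocount of 0.1 and 0 to 1 with 1 library left out (1 without A-485 library 2). Calls of A-485 against I-CBP112 were 306 with the block and 6 to 119 with 1 library left out, the lowest without A-485 library 2. Interaction calls were 11 with the block. The cause of these changes was not tested.

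Of 163 named genes, 150 kept their direction under every alternative run. Directions reversed for 13. With 1 library left out the log2 difference ran from -0.63 to 0.32 for ACTA2, -0.98 to 1.68 for CD44, -0.23 to 0.59 for CREBBP, -0.074 to 0.38 for EP300, -0.53 to 3.22 for GYG2, -0.95 to 2.29 for KRT5, -0.55 to 0.045 for MLXIP, -0.56 to 0.16 for MT1X, -0.080 to 1.0 for OAZ1, -0.072 to 0.59 for SYP and -0.072 to 0.41 for VIM. By voom it was -0.32 for KRT5, -0.17 for ITGB4 and -0.034 for VIM, and by voom with the block -0.086 for HDAC6, -0.16 for ITGB4 and -0.053 for VIM. Of 36 lists, 20 kept the direction of their median, among them G1/S (-0.61 to -0.42), ATF4 targets (-0.61 to -0.36) and the endoplasmic reticulum list (-0.46 to -0.30), and 16 did not. Members below 0 ranged from 41 to 46 of the 47 G1/S genes, 27 to 29 of the 30 ATF4 targets and 22 to 24 of the 26 endoplasmic reticulum genes, counts added after seeing the data. Leaving out transcripts under 300 bases, also added then, gave 0 gene calls and moved PTPN12, ZMYND8 and MARS as described.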
